A study of Mus musculus with 12 samples.

Results

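Libraries labelled KO2, a Bcat1 knockout called clone 2 below, were set against libraries labelled WT, all of them from E14, a mouse embryonic stem cell line derived from a male embryo. The members were taken by their titles, and they are 4 of the 12 samples of the series, 2 of clone 2 and 2 of WT, called KO2-1, KO2-2, WT-1 and WT-2 after their replicate numbers. The pair labelled KO1 (clone 1) entered the same fit and serves to show where clone 2 differed from the other knockout. The remaining 6 samples, of days 0 and 7 of a separate course, were left out. The groups differ by the labelled genotype, with no treatment or time named for either, and the labels give neither the kind of edit nor the way the knockout lines were derived. All cells grew in serum with leukemia inhibitory factor (LIF) and 2i, per the labels' protocols; 2i usually stands for inhibitors of MEK and GSK3. The labels call each knockout a clone, and with 1 clone each the genotype and a trait of the line cannot be told apart.

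Bcat1 encodes the cytosolic branched-chain aminotransferase, which moves the amino group of leucine, isoleucine or valine to alpha-ketoglutarate and so makes glutamate. Mouse embryonic stem cells self-renew through a network of transcription factors such as Pou5f1 (Oct4), Sox2 and Nanog, supported by LIF signalling and by low activity of the ERK pathway. Ras proteins act upstream of Raf, MEK and ERK, and the title of the series names Ras signalling beside self-renewal and pluripotency.

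Gene counts totalled 13294805 and 13923262 in WT and 11976149 and 12864573 in clone 2. Levels are CPM, a gene's counts scaled to the total gene counts of its library, with replicate 1 before replicate 2, and are not scaled by gene length. Differences are log2 fold changes of clone 2 over WT, with the standard error (SE) of the fit after ±. A gene is called where edgeR's quasi-likelihood test gave a Benjamini-Hochberg adjusted p under 0.05 over the 14946 genes tested, and "rose" and "fell" are kept for called genes. The labels do not say whether replicates were separate cultures, so the p-values measure the spread of these libraries only. Of the genes tested, 1507 (10.1%) were called higher and 1167 (7.81%) lower, together 2674 (17.9%). Counts of called members in the gene lists below are to be read beside these shares. Called changes of at least 2-fold made up 555 genes (3.71%) on the higher side and 323 (2.16%) on the lower side. The libraries of the groups did not overlap in 4946 genes (33.1%) with clone 2 higher and in 4178 (28%) with clone 2 lower, so that separation by itself is common. In genes named below for a small p, separation adds little to the call. Single libraries moved the count of calls: 1165 genes were called without WT-1, 1317 without WT-2, 1332 without KO2-1 and 1485 without KO2-2, and 4168 or 4191 when a clone 1 library was left out. The call held under all 15 alternatives tried for 811 genes, 471 higher and 340 lower. Each named gene kept its call under all of them unless a loss is given in its paragraph.

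The knockout could not be read from the transcript. Bcat1 (chr6:144993835-145076184, minus strand, mm10) stood at 587 and 597 CPM in WT and at 576 and 570 CPM in clone 2, a log2 fold change of -0.06 ± 0.07 (adjusted p = 0.606). The clone 2 values lay just below the WT values, by less than the test could call. A count over the whole gene does not check an edit that leaves the transcript in place, so clone 2 means the libraries labelled knockout throughout. Bcat2, which carries out the same reaction in mitochondria, was at 58.4 and 63.2 CPM in WT and 68.1 and 66.2 in clone 2 (0.12 ± 0.11, not called). Among 26 genes of branched-chain amino acid breakdown, 2 were called higher and 0 lower, with a median of 0.08 (0 to 2 and 0 to 4 over the alternatives). The 7.69% called higher and 0% lower stood beside 10.1% and 7.81% of all genes. The 2 called genes were Pcca, a subunit of propionyl-CoA carboxylase, at 0.50 ± 0.12, and Acat1, a mitochondrial thiolase, at 0.53 ± 0.17. Bckdha, a subunit of the dehydrogenase that acts after the transaminase, was at -0.44 ± 0.19 and was not called. The Pcca call was lost without WT-1 (adjusted p = 0.111), without KO2-1 (0.0676), without KO2-2 (0.0599) or at a minimum fold of 1.2 (0.0819). The Acat1 call was lost without WT-2 (adjusted p = 0.384), without KO2-1 (0.311), without KO2-2 (0.0527), by DESeq2 (0.0909) or at a minimum fold of 1.2 (0.167).

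Genes of chromosome Y set clone 2 apart from every other library. Eif2s3y, the Y-linked copy of a translation initiation factor subunit, stood at 0.752 and 0.287 CPM in WT, 0.248 and 0.0793 CPM in clone 1 and 46.8 and 48.04 CPM in clone 2. The groups did not overlap, and the log2 fold change against WT was 6.48 ± 0.25 (adjusted p = 2.19e-11). Ddx3y, an RNA helicase, was at 0.226 and 1.15 CPM in WT and at 39.1 and 35.7 in clone 2, a rise of 5.71 ± 0.30. Uty, a relative of the H3K27 demethylases, was at 0.301 and 0.216 CPM in WT and at 15.4 and 13.1 in clone 2. Uba1y, a ubiquitin-activating enzyme, went from 0.1504 and 0.287 to 7.43 and 8.32 CPM. Zfy1, a zinc finger factor, had 0 counts in WT and 70 in clone 2, at least 25.6-fold higher, taking 3 counts over the group as the floor. All 5 tested genes of the Y list rose. All 5 were also called higher than in clone 1, where Uba1y and Zfy1 had no count. Being near 0 in WT and clone 1, these 5 could be tested only through their counts in clone 2. That every tested member of the list rose was thus largely fixed in advance, and 4 of its 9 members were not tested. Since E14 is derived from a male embryo, the levels near 0 in WT and clone 1 are the ones that depart from the origin of the line. The labels do not account for this, and its cause was not tested. Kdm5d, too low to test, had 1 and 0 counts in WT against 6 and 12 in clone 2. Zfy2 had 0 and 1 counts in both groups, and Usp9y and Sry had 0 counts in every library. The X-linked partners were not called, with log2 fold changes of -0.14 ± 0.08 for Ddx3x and 0.02 ± 0.09 for Eif2s3x. Of the 7 tested genes placed on chromosome Y with a mean of 1 CPM or more, 5 were called higher and 0 lower. Their median was 5.71 and their lower quartile 2.51, so not all 7 rose. Their mean was taken over WT and clone 2, and a high level in clone 2 alone could reach 1 CPM. On chromosomes 1 to 19 and X the medians lay between -0.07 on chromosome 1, where 15.1% of genes were called lower, and 0.03 on chromosome 16.

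**Figure D1:**
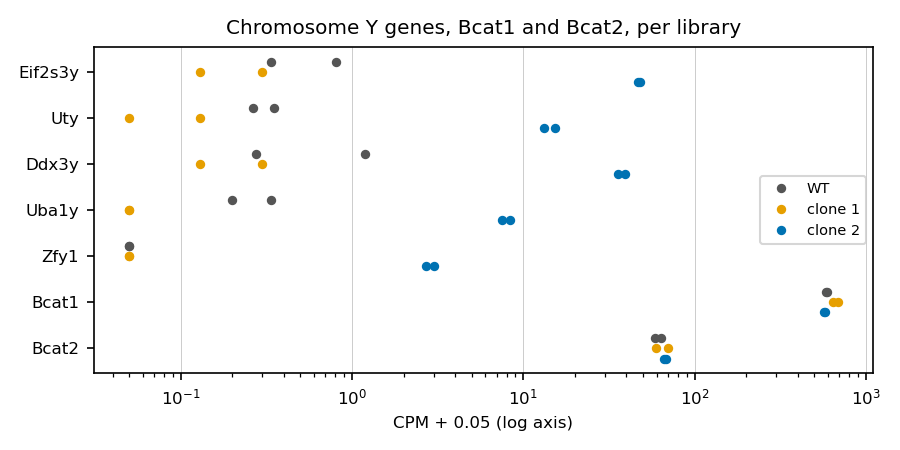
CPM plus 0.05 on a log axis for the 5 tested genes of the chromosome Y list, Bcat1 and Bcat2, with 1 point per library (grey WT, orange clone 1, blue clone 2). The clone 2 points of all 5 Y genes stand to the right of every other library, with Eif2s3y at 46.8 and 48.04 CPM, while the points of Bcat1 and Bcat2 lie close together.

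Of the genes named here, the largest fitted rise was in Wnt10b, a secreted Wnt ligand (chr15:98770712-98778150, minus strand, mm10). It stood at 0.226 and 0.0718 CPM in WT, 0.165 and 0.555 CPM in clone 1 and 54.1 and 48.97 CPM in clone 2. Both clone 2 libraries thus lay far above the others, with a log2 fold change of 8.35 ± 0.30 over WT (adjusted p = 1.12e-11) and 7.18 over clone 1 (adjusted p = 2.9e-11). Its neighbours among the tested genes, looked up after this value was seen, showed no such rise. Untested genes near Wnt10b are not covered. Arf3, a small GTPase beside it, was at 0.02 ± 0.08 and Ddn, on the other side, at 0.43 ± 0.62, neither of them called. Prkag1, a subunit of the energy sensor AMPK, fell by 1.23 ± 0.21, from 19.6 and 20.4 to 7.68 and 9.56 CPM. Kmt2d, an H3K4 methyltransferase, rose by 0.48 ± 0.09. The Kmt2d call was lost without WT-1 (adjusted p = 0.0536).

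The other large rises were in genes of mixed known roles. Sohlh2, a transcription factor of germ cells, stood at 0.226 and 0.575 CPM in WT and 10.9 and 10.2 in clone 2, a rise of 4.65 ± 0.30. Dnajc5g, a DnaJ-domain protein, went from 0.226 and 0.0718 to 4.43 and 3.42 CPM. Sgcz, a sarcoglycan, had 0 counts in WT and 53 in clone 2, at least 19.4-fold higher. Peg13, an imprinted noncoding RNA, had 1 count in WT and 64 in clone 2, a CPM ratio of 70.1 (exact 95% interval 12.1 to 2813). Xlr5c, one of an X-linked family with near-identical copies, had 1 and 52 counts, a ratio of 57.0 (9.79 to 2293). For Rhox13, of an X-linked homeobox cluster, the counts were 2 and 58 and the ratio 31.8 (8.41 to 268.6). These intervals cover counting error only. In each of these genes both clone 2 libraries lay above both WT libraries, as the choice required. Sgcz, Peg13, Xlr5c and the Y-linked Zfy1 could be tested under 14 of the 15 alternatives and were called in each of those.

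The 12 largest falls were in genes of mixed known roles, none of them above 28.01 CPM in a WT library. Zan, a sperm protein that binds the egg coat, had 120 counts in WT and 3 in clone 2, a WT over clone 2 ratio of 36.5 (12.2 to 179.5). Mgll, the lipase of monoacylglycerol, went from 4.89 and 4.02 to 0.334 and 0.389 CPM and fell by 3.603 ± 0.45. Mogat2, which makes diacylglycerol, fell by 3.23 ± 0.28, from 10.5 and 14.9 to 1.67 and 1.09 CPM. The clone 2 libraries were below both WT libraries in all of these, again as the choice required. Slc39a14, a zinc and iron importer, fell by 3.39 ± 0.24, from 21.2 and 28.01 to 2.51 and 2.25 CPM. The calcium pump Atp2b2 fell by 2.995 ± 0.36, from 5.34 and 4.31 to 0.585 and 0.622 CPM, and its relative Atp2c2 fell by 3.28 ± 0.59. H2-Eb1, an MHC class II chain, fell by 2.99 ± 0.22, from 20.01 and 22.3 to 2.25 and 3.11 CPM. Slfn5 (log2 fold change -3.25 ± 0.53), the aldehyde dehydrogenase Aldh3a1 (-2.97 ± 0.32), Pdlim4 (-2.91 ± 0.45), the cyclooxygenase Ptgs1 (-2.898 ± 0.52) and the T-box factor Tbx20 (-2.89 ± 0.68) make up the rest of the 12. The Tbx20 call was lost without WT-2 (adjusted p = 0.0869) or without KO2-2 (0.0746).

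**Figure D2:**
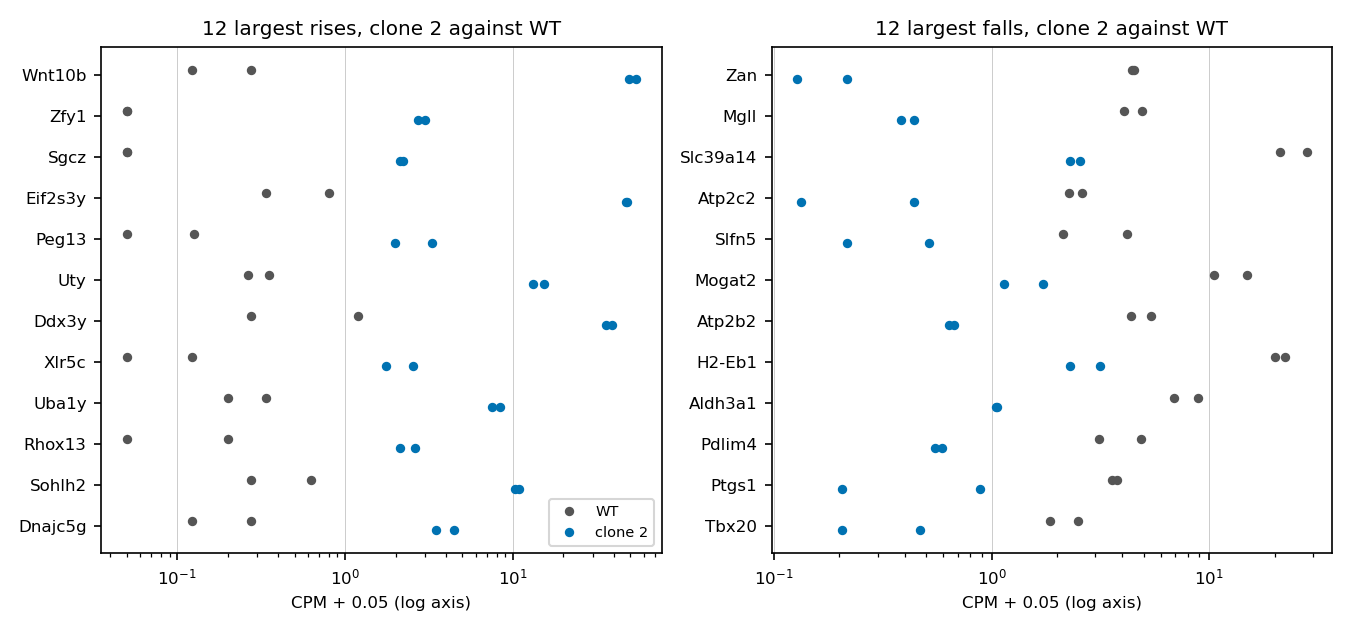
CPM plus 0.05 on a log axis for the 12 largest rises and the 12 largest falls of clone 2 against WT by log2 fold change, with 1 point per library (grey WT, blue clone 2). Wnt10b at 54.1 and 48.97 CPM in clone 2 tops the rises, and in every gene the points of both groups are apart, as the choice of these genes required.

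By difference in CPM the largest rises included Fn1, fibronectin, from 2359 and 2488 to 2951 and 2839 CPM (0.24 ± 0.07), and Lamc1, the laminin gamma 1 chain, from 621 and 658 to 984 and 998 CPM (0.61 ± 0.07). Kit, the receptor of stem cell factor, went from 216 and 198 to 446 and 432 CPM, a rise of 1.07 ± 0.09. The largest falls in CPM included the glycolytic enzyme Eno1, which fell by 0.28 ± 0.07, from 2382 and 2360 to 1925 and 2016 CPM, and whose reads are hard to tell from those of its near-identical copy Eno1b. Parp1, a DNA damage sensor, fell by 0.42 ± 0.07, from 1041 and 1090 to 803 and 806 CPM. Tbc1d13, a regulator of Rab GTPases, fell by 0.99 ± 0.08, from 534 and 552 to 284 and 270 CPM. In each of these genes the clone 2 and WT libraries were apart. Fn1 (adjusted p = 0.222) and Eno1 (0.0663) were not called without WT-1. Fn1 (0.0776) and Eno1 (0.056) were not called without WT-2. Fn1 (0.26) and Eno1 (0.143) were not called without KO2-1. Fn1 (0.121) and Eno1 (0.0527) were not called without KO2-2. Fn1, Eno1 and Parp1 were not called at a minimum fold of 1.2 (adjusted p of 0.0522 to 0.832).

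Genes of the integrated stress response were called higher at a larger share than genes at large. In this response, stress kinases such as Gcn2, which senses uncharged tRNA, phosphorylate eIF2, and the factor Atf4 then raises genes of amino acid synthesis, uptake and tRNA charging. Of the 24 genes of the list, 12 were called higher and 2 lower, where 10.1% and 7.81% of all genes were, and the median was 0.32. Over the alternatives 5 to 15 were called higher. The promoters of 4 members called higher are shown because each holds the letters TGATGNAA or their reverse complement TTNCATCA, which resemble the known site of Atf4 paired with C/EBP factors. The sequences are RefSeq windows of GRCm38.p6, from 250 bases before to 50 after the annotated start, 5′ to 3′, with the match in capitals.
Chac1: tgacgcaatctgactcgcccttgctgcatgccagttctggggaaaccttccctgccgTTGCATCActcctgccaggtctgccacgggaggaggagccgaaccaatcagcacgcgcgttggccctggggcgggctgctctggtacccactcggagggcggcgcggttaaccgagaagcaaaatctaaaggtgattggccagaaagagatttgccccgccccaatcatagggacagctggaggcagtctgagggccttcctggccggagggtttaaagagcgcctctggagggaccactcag
Trib3: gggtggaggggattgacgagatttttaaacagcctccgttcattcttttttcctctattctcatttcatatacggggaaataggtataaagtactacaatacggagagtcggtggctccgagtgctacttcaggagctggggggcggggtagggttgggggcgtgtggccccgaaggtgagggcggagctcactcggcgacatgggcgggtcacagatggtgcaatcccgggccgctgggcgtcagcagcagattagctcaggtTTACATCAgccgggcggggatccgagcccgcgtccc
Pycr1: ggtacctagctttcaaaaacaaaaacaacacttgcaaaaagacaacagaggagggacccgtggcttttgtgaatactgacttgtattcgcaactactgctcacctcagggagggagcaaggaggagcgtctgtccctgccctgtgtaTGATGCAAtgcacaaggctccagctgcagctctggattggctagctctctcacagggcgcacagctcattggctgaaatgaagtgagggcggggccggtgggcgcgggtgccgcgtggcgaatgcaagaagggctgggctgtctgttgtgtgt
Vldlr: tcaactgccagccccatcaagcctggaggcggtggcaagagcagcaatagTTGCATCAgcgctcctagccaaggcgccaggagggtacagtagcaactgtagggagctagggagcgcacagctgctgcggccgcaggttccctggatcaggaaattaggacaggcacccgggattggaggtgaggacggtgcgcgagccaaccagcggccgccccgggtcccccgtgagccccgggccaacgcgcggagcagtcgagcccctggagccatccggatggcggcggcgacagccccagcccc

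The windows lie at chr2:119350992-119351291 on the plus strand for Chac1, chr2:152344011-152344310 on the minus strand for Trib3, chr11:120643699-120643998 on the minus strand for Pycr1 and chr19:27216770-27217069 on the plus strand for Vldlr. Of the 23 list members with a window, 7 held a match (30.4%), against 2.73% of the 10456 tested genes with a window. The share was 4.51% of all 27025 genes with a window and 3.97% of all 32851 windows. A gene was counted if any of its windows held a match. Among the 11 called higher that had a window, 4 held one, and members without a call, such as Asns and Atf3, held it too. In all, 6 motifs were searched on both strands in 3 lists, and the pairing shown was picked after those counts were seen. The stricter TGATGCAA, a case of TGATGNAA, was in 5 of the 23 and in 0.727% of tested genes. The E-box CACGTG was in 2 of the 23, against 11.8%, and TCCCGC in 9, against 40.1%. CCACGTGG, which contains CACGTG, was in 2, against 1.3%, and TTTCCCGC, which contains TCCCGC, in 0, against 2.4%. Among 15 amino acid transporters with a window, TGATGNAA, TGATGCAA and CACGTG were each in 2, TCCCGC in 5, CCACGTGG in 1 and TTTCCCGC in 0. A match is a run of letters and not a shown binding site, and these shares describe the lists rather than clone 2.

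Atf5 (chr7:44812256-44816658, minus strand, mm10), a transcription factor of this response, stood at 25.1 and 27.3 CPM in WT and 51.9 and 57.7 in clone 2, a rise of 1.05 ± 0.13 (adjusted p = 1.84e-05). In clone 1 it stood below WT, at 14.4 and 17.99 CPM. Stc2, a secreted glycoprotein, rose by 0.83 ± 0.11, from 31.1 and 30.7 to 55.9 and 55.4 CPM. Phgdh, which opens serine synthesis, rose by 0.48 ± 0.08, from 169 and 179 to 249 and 243 CPM. Among proline synthesis enzymes, Aldh18a1 went from 162 and 157 to 232 and 224 CPM (0.50 ± 0.08) and Pycr1 from 43.9 and 45.7 to 64.9 and 63.7 CPM (0.50 ± 0.10). In these 5 genes the clone 2 libraries lay above both WT libraries. Cebpb, a C/EBP factor, fell by 1.099 ± 0.19, from 13.9 and 17.5 to 6.596 and 8.24 CPM, and lies in the run of lower genes on chromosome 2 given further on.

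A further 7 members rose, each with a call that some alternatives ended. Chac1, an enzyme that degrades glutathione, rose by 0.51 ± 0.13, from 31.1 and 39.1 to 50.9 and 50.5 CPM. Trib3, a pseudokinase, rose by 0.49 ± 0.11, from 74.01 and 80.01 to 105 and 114 CPM. Vldlr, a lipoprotein receptor, rose by 0.64 ± 0.19, from 6.995 and 8.76 to 11.7 and 13.1 CPM. Ddit3, the stress factor known as CHOP, rose by 0.40 ± 0.10, Psph, the last enzyme of serine synthesis, by 0.40 ± 0.10, Mthfd2, of mitochondrial folate metabolism, by 0.35 ± 0.08, and Cth, of cysteine synthesis, by 0.38 ± 0.08. Sesn2, an inhibitor of mTORC1 signalling, fell by 0.29 ± 0.09. Atf4 itself, whose known control is largely at translation, was at 0.14 ± 0.07, the asparagine synthetase Asns at -0.10 ± 0.07 and Psat1, of serine synthesis, at 0.21 ± 0.08, and none of these was called. Chac1 (adjusted p = 0.195), Trib3 (0.103), Vldlr (0.214), Ddit3 (0.131), Psph (0.0597) and Sesn2 (0.0852) were not called without WT-1. Ddit3 (0.0694), Psph (0.148), Mthfd2 (0.0876), Cth (0.0598) and Sesn2 (0.221) were not called without WT-2. Chac1 (0.0772), Vldlr (0.067), Ddit3 (0.0729), Psph (0.083), Cth (0.0537) and Sesn2 (0.179) were not called without KO2-1. Chac1 (0.0568), Trib3 (0.0653), Vldlr (0.179), Ddit3 (0.138), Psph (0.117), Mthfd2 (0.101) and Sesn2 (0.149) were not called without KO2-2. Vldlr (0.0731) was not called by DESeq2. Chac1, Trib3, Vldlr, Ddit3, Psph, Mthfd2, Cth and Sesn2 were not called at a minimum fold of 1.2 (adjusted p of 0.0736 to 0.552).

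Clone 2 was also compared with clone 1 in this list. Of the 24 genes, 17 were called higher than in clone 1 and 0 lower, where 6.62% and 7.71% of all genes were, and the median was 0.68. Over the alternatives 14 to 19 were called higher. Atf4 was 0.56 above clone 1 (adjusted p = 8.2e-05), Psat1 0.89 above (1.14e-06) and Nupr1, a small stress-induced chromatin protein, 1.05 above (5.21e-06), all log2 differences. In clone 1 against WT, 1 of these genes was called higher and 13 lower, where 12.4% and 9.53% of all genes were, with a median of -0.34. The contrasts with WT share the WT libraries.

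**Figure D3:**
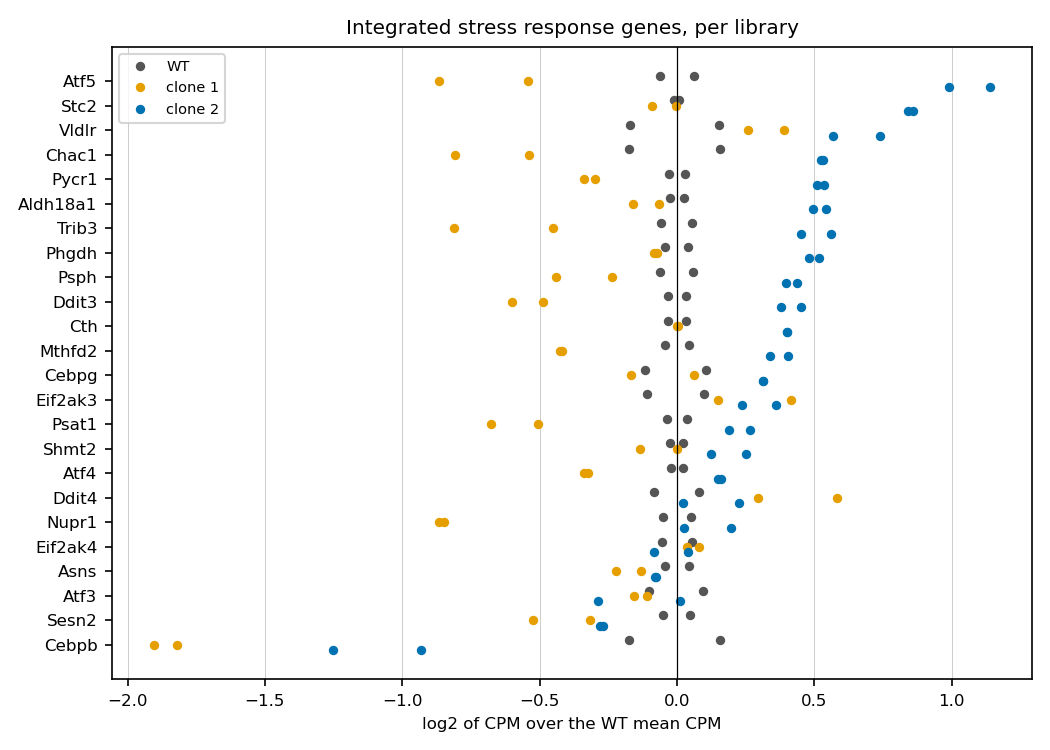
The log2 of each library's CPM over the WT mean CPM for the 24 integrated stress response genes, ordered by log2 fold change of clone 2 over WT, with 1 point per library (grey WT, orange clone 1, blue clone 2). Atf5, at 1.05 ± 0.13 in clone 2, leads the list and Cebpb, at -1.099 ± 0.19, closes it, and Cebpb is low in both clones.

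Amino acid transporters were called higher in 9 of 20 and lower in 1, with a median of 0.14, and in 3 to 9 higher over the alternatives. Called shares of the transporters were 45% higher and 5% lower, where 10.1% and 7.81% of all genes were. Slc7a5, the light chain of a main importer of leucine and other large neutral amino acids, rose by 0.50 ± 0.08, from 332 and 353 to 498 and 485 CPM. Its heavy chain partner Slc3a2 rose by 0.35 ± 0.08, from 312 and 316 to 399 and 410 CPM. Slc43a1 and Slc43a2, further carriers of large neutral amino acids, rose by 1.21 ± 0.22 and 0.92 ± 0.16, Slc43a2 from 9.03 and 10.3 to 18.1 and 18.8 CPM. In each gene given here by its CPM, both clone 2 libraries lay above both WT libraries. The Slc3a2 call was lost without WT-1 (adjusted p = 0.0781), without WT-2 (0.0578), without KO2-1 (0.0607), without KO2-2 (0.0839) or at a minimum fold of 1.2 (0.282).

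Aars, the alanyl-tRNA synthetase, was among the largest rises in CPM, from 924 and 1001 to 1176 and 1202, a rise of 0.29 ± 0.07. The other cytosolic tRNA synthetases were looked up after this was seen. Of 20 tested, 1 was called higher than in WT, which is Aars, and 0 lower, with a median of 0.05. Against clone 1, 13 of the 20 were called higher and 0 lower, where 6.62% and 7.71% of all genes were, and clone 1 itself had a median of -0.26 against WT. The Aars call was lost without WT-1 (adjusted p = 0.164), without KO2-1 (0.0986), without KO2-2 (0.137) or at a minimum fold of 1.2 (0.559).

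Core factors of the pluripotency network were called lower at a larger share (58.3%) than genes at large (7.81%), while Pou5f1 and Nanog were not called. The shares called higher were 8.33% and 10.1%. Of 12 core factors, 7 were called lower and 1 higher, with a median of -0.27 and 4 to 9 lower over the alternatives. Utf1, a chromatin factor of undifferentiated cells, fell by 1.84 ± 0.15, from 186 and 188 to 47.4 and 58.1 CPM (adjusted p = 2.2e-07). Dppa2, which primes early developmental genes, fell by 1.14 ± 0.12, from 49.4 and 47.8 to 20.96 and 23.8 CPM. Sall4, a zinc finger factor on the chromosome 2 run, fell by 0.88 ± 0.08, from 395 and 404 to 218 and 221 CPM. Sall1, a relative of Sall4, was the one that rose, by 1.44 ± 0.08, from 79.1 and 74.1 to 217 and 205 CPM. Pou5f1 was at 467 and 538 CPM in WT and 410 and 472 in clone 2, so the libraries overlapped, and its log2 fold change was -0.21 ± 0.12. Nanog, at 0.09 ± 0.08, was at 606 and 619 CPM in WT and 686 and 638 in clone 2. Sox2 fell by 0.28 ± 0.08, from 647 and 675 to 556 and 546 CPM. The Sox2 call was lost without WT-1 (adjusted p = 0.114), without WT-2 (0.204), without KO2-1 (0.159), without KO2-2 (0.185) or at a minimum fold of 1.2 (0.615).

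Of 20 naive pluripotency genes, 7 were called lower and 2 higher, with a median of -0.10 and 4 to 9 lower over the alternatives. Of the naive genes 35% were thus lower and 10% higher, where 7.81% and 10.1% of all genes were. Manba, a lysosomal mannosidase, fell by 1.37 ± 0.09, from 211 and 196 to 80.6 and 78.8 CPM. Tdh, the threonine dehydrogenase of mouse stem cells, fell by 0.46 ± 0.08, from 446 and 447 to 318 and 340 CPM. Tcl1, a coactivator of Akt, fell by 0.57 ± 0.09, and the homeobox factor Gbx2 fell by 0.64 ± 0.13. The Krüppel-like factor Klf5 rose by 0.45 ± 0.10. Zfp42 (Rex1), Esrrb and Klf4 were at -0.05 ± 0.07, -0.05 ± 0.08 and -0.03 ± 0.09 and were not called. The Klf5 call was lost without WT-1 (adjusted p = 0.0567), without WT-2 (0.0597) or at a minimum fold of 1.2 (0.0842).

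Among 18 genes of formative and primed pluripotency 4 were called higher and 1 lower, with a median of 0.01, and in 3 to 4 and 0 to 1 over the alternatives. Shares higher and lower were 22.2% and 5.56% in this list and 0% and 20% in the 2-cell-like list below. Among all genes they were 10.1% and 7.81%. Sall2, a zinc finger factor, rose by 1.76 ± 0.19, from 4.21 and 4.81 to 16.5 and 14.6 CPM. Sox4 rose by 1.58 ± 0.28, and Grhl2, an epithelial factor, by 2.37 ± 0.44. Of the 2-cell-like genes, 5 were tested, 1 was called lower and 0 higher, and 0 either way when a WT or clone 2 library was left out. Zscan4c, of a family of near-identical copies, had 0 counts in both WT libraries and, in clone 2, 4 in KO2-1 and 0 in KO2-2, so the groups overlapped and it was not called. Over the group that is at least 1.46-fold higher, a value that rests on KO2-1 alone. The median of these genes was 0.94, and 0.55 with Zscan4c at its bound, but neither value describes the list. The first is the fitted value of Zscan4d, with 1 count in WT and 2 in clone 2, too few for a fold. Zscan4c, Gm4340 and Gm8300 also had few counts in both groups and could be tested only through their counts in clone 1.

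Targets and feedback inhibitors of ERK signalling were called lower in 9 of 22 and higher in 1, with a median of -0.31 and 4 to 11 lower over the alternatives. These are shares of 40.9% lower and 4.55% higher, where 7.81% and 10.1% of all genes were. Myc, a growth-promoting factor, fell by 1.08 ± 0.19, from 15.5 and 17.5 to 8.02 and 7.85 CPM. Spry4, a feedback inhibitor of receptor kinases, fell by 0.98 ± 0.16, from 19.8 and 18.3 to 10.3 and 9.25 CPM, and Dusp5, a phosphatase of ERK, fell by 1.54 ± 0.33. Epha4, an ephrin receptor, fell by 0.66 ± 0.08, from 214 and 211 to 140 and 133 CPM. Etv4, an ETS factor downstream of FGF signalling, rose by 0.76 ± 0.11, from 32.6 and 33.8 to 59.7 and 54.3 CPM. In each gene given here by its CPM the groups did not overlap.

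Upstream, 5 of 26 genes of the Ras family and its regulators were called higher and 0 lower, with a median of 0.05 and 3 to 6 higher over the alternatives. Mras, a Ras-like GTPase, rose by 1.13 ± 0.11, from 30.8 and 29.95 to 69.6 and 64.8 CPM. Rasal1, which promotes GTP hydrolysis by Ras, rose by 1.51 ± 0.17, from 7.296 and 5.96 to 18.8 and 19.5 CPM. Sos2 and Sos1, exchange factors that load Ras with GTP, rose by 1.13 ± 0.21 and 0.46 ± 0.10. Hras and Nras were at 0.15 ± 0.11 and 0.00 ± 0.09 and were not called. In the Raf, MEK and ERK cascade 1 of 23 was called higher and 1 lower, with a median of 0.02 (0 to 5 and 0 to 2 over the alternatives). The shares higher and lower were 19.2% and 0% in the Ras list and 4.35% and 4.35% in the cascade. Among all genes they were 10.1% and 7.81%. All of these are transcript levels in cells held in 2i, and they do not measure how active the proteins were. The Sos1 call was lost without WT-1 (adjusted p = 0.087), without KO2-1 (0.0922) or at a minimum fold of 1.2 (0.0906).

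In the BMP and Nodal pathway, 8 of 18 genes were called lower and 2 higher, with a median of -0.37 and 5 to 9 lower over the alternatives. Shares lower and higher were 44.4% and 11.1% in this list and 17.6% and 5.88% in the Wnt and TCF list below. Among all genes they were 7.81% and 10.1%. The ligand Bmp4 fell by 0.96 ± 0.14, from 22.3 and 22.8 to 12.4 and 11.1 CPM, and Bmp7 fell by 0.98 ± 0.14, from 22.8 and 25.4 to 11.6 and 13.1 CPM. Lefty2, a secreted Nodal antagonist, fell by 1.33 ± 0.13, from 38.96 and 41.1 to 17.3 and 15.1 CPM. Of BMP targets, the inhibitory Smad6 fell by 0.92 ± 0.19 and the homeobox factor Msx2 fell by 1.58 ± 0.23. The groups did not overlap in the 3 genes given by CPM. In the LIF and STAT3 pathway 5 of 18 were called higher and 1 lower, with a median of 0.04 and 0 to 7 higher over the alternatives. Among 17 Wnt targets and TCF factors 1 was called higher and 3 lower, with a median of -0.09 (0 to 2 and 1 to 5 over the alternatives).

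**Figure D4:**
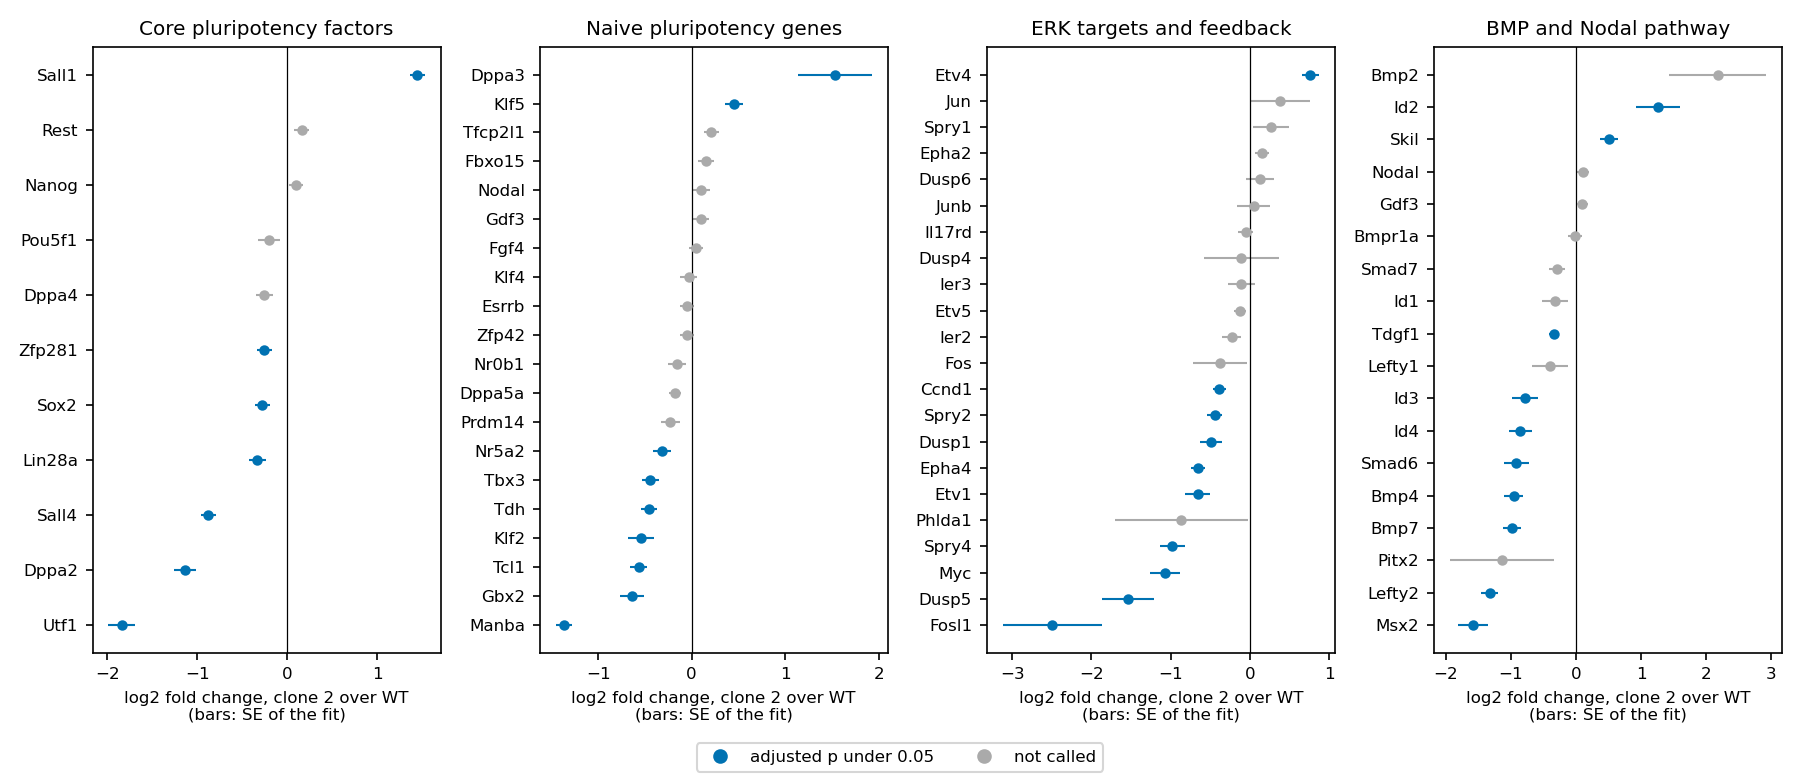
Log2 fold change of clone 2 over WT with the SE of the fit for tested members of 4 lists, ordered within each list, with called genes (adjusted p under 0.05) in blue and the others in grey. Called genes lie mostly on the lower side in each panel, among them Utf1 (-1.84 ± 0.15) and Lefty2 (-1.33 ± 0.13), while Sall1 (1.44 ± 0.08) and Etv4 (0.76 ± 0.11) lie on the higher side.

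Lineage genes were called in both directions. Cdx2, a factor of trophectoderm and a Wnt target, fell by 2.39 ± 0.24, from 28.1 and 21.7 to 6.26 and 3.42 CPM, and Gata2, another trophoblast factor, fell by 2.22 ± 0.29. Of 11 trophoblast genes, 4 were called lower and 1 higher (2 to 5 and 0 to 1 over the alternatives). These are shares of 36.4% lower and 9.09% higher, where 7.81% and 10.1% of all genes were. Tead4 and Krt19, the others called lower, fell by 0.41 ± 0.10 and 0.55 ± 0.16, and Tfap2a rose by 0.78 ± 0.22. Hnf4a, an endodermal nuclear receptor, fell by 2.7 ± 0.25, from 10.7 and 11.6 to 1.75 and 1.71 CPM. The laminin chain Lama1, which primitive endoderm makes in quantity, rose by 0.48 ± 0.08, from 291 and 312 to 433 and 421 CPM, and of 13 endoderm genes 3 were called higher and 1 lower (2 to 4 higher and always 1 lower over the alternatives). Kdr, a VEGF receptor, rose by 3.24 ± 0.42, from 0.376 and 0.575 to 4.18 and 5.13 CPM. T, known as Brachyury, fell by 1.02 ± 0.23, and these were the only calls among 7 mesoderm genes. Tead4 (adjusted p = 0.058), Krt19 (0.0841) and Tfap2a (0.0975) were not called without WT-1. Tead4 (0.0855), Krt19 (0.16), Tfap2a (0.134) and T (0.0783) were not called without WT-2. Tead4 (0.0572), Krt19 (0.294) and Tfap2a (0.0515) were not called without KO2-1. Tead4 (0.103) and Tfap2a (0.149) were not called without KO2-2. Krt19 (0.0533) and Tfap2a (0.0623) were not called by DESeq2. Tead4, Krt19 and Tfap2a were not called at a minimum fold of 1.2 (adjusted p of 0.0685 to 0.157).

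Nefm (chr14:68082590-68124846, minus strand, mm10), the medium neurofilament subunit, stood apart among 8 ectoderm and neural genes, of which 3 were called higher and 2 lower, the latter 0 to 2 over the alternatives. It was at 7.37 and 5.17 CPM in WT, 17.6 and 16.9 CPM in clone 1 and 114 and 106 CPM in clone 2, a rise of 4.11 ± 0.14 (adjusted p = 8.55e-12), and 2.74 above clone 1 (3.59e-10). Its partner subunit Nefl rose by 2.14 ± 0.16, from 5.12 and 5.24 to 23.3 and 22.9 CPM. Sox21, a neural Sox factor, rose by 2.67 ± 0.25, from 2.48 and 1.51 to 12.1 and 13.6 CPM. Nes, nestin, fell by 0.55 ± 0.13. Of the 14 members of the list, 8 were tested. Of these 37.5% were called higher and 25% lower, where 10.1% and 7.81% of all genes were. The Nes call was lost without WT-2 (adjusted p = 0.156), without KO2-1 (0.126) or at a minimum fold of 1.2 (0.061).

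The markers chosen for other cells stayed low beside those of stem cells. Over 7 genes, embryonic stem cell markers summed to 5630 and 5750 CPM in WT and to 5250 and 5220 in clone 2. The 7 fibroblast markers summed to 3.01 and 4.53 against 2.93 and 3.88 CPM, with Dcn, Lum and Postn at 0 in every library. The 5 primitive endoderm markers summed to 2.26 and 4.16 against 3.84 and 5.68 CPM, overlapping between the groups, and the 5 trophoblast markers to 39.2 and 34.1 against 18.4 and 17.5. Of the trophoblast sum Cdx2 gave 28.1 and 21.7 CPM in WT and 6.26 and 3.42 in clone 2, while Eomes was at 10.1 and 11.1 and 10.7 and 11.8. The 4 neural markers (Sox1, Pax6, Tubb3 and Nes) summed to 80.5 and 91.8 against 65.9 and 74.1 CPM. They leave out Nefm, Nefl and Sox21, which rose, and Nefm alone was at 114 and 106 CPM in clone 2. The 3 markers of primitive streak summed to 9.03 and 10.7 against 4.84 and 5.83. The 3 germ cell markers summed to 8.95 and 7.61 against 24.5 and 28.2 CPM, of which Dazl gave 19.5 and 22 in clone 2. The part of other cell types in the results was not tested, and in bulk samples fewer cells of a type and less RNA per cell cannot be told apart.

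Germline genes were called higher in 13 of 30 tested and lower in 3, with a median of 0.25, and in 9 to 13 and 2 to 3 over the alternatives. Of the tested members 43.3% were thus higher and 10% lower, where 10.1% and 7.81% of all genes were. Many germline genes are known to be kept silent outside the germline by DNA methylation and by a Polycomb complex that reads E-boxes. Promoters of 2 members called higher are shown because they hold the E-box CACGTG, which is its own reverse complement, in capitals, in the same kind of RefSeq window of GRCm38.p6.
Hormad1: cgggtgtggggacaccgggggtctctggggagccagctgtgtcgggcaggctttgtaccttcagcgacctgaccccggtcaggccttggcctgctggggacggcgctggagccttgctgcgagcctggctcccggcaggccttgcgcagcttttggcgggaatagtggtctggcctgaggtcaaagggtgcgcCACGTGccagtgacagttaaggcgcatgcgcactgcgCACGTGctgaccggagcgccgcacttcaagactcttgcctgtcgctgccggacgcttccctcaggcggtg
Taf7l: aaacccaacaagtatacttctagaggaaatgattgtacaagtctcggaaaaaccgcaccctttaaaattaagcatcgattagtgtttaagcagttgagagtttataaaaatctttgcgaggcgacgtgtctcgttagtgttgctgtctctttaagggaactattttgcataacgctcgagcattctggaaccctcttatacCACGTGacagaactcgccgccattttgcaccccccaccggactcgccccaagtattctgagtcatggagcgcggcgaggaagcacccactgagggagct

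The windows lie at chr3:95559427-95559726 on the plus strand for Hormad1 and chrX:134476441-134476740 on the minus strand for Taf7l. Of 29 list members with a window, 13 held CACGTG (44.8%), against 11.8% of tested genes with a window. The share was 8.09% of all genes with a window and 7.15% of all windows. Only 3 of the 13 members called higher held it. In the same 29, TCCCGC was in 13, against 40.1%, TGATGNAA in 3, TTTCCCGC in 2, and TGATGCAA and CCACGTGG in 0. Here too the motif and genes shown were picked after the counts were seen.

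Dazl, known for binding RNA in germ cells, stood at 2.56 and 2.08 CPM in WT and 19.5 and 22 in clone 2, a rise of 3.14 ± 0.20 (adjusted p = 1.5e-08). Hormad1, of the meiotic chromosome axis, rose by 1.68 ± 0.23, from 3.16 and 2.298 to 8.6 and 9.095 CPM, and Mov10l1, a helicase of the piRNA pathway, by 1.65 ± 0.28. Taf7l, a germ cell paralog of a TFIID subunit, rose by 2.23 ± 0.49, from 0.602 and 0.287 to 2.09 and 2.18 CPM. Tuba3a, a testis tubulin, rose by 4.21 ± 0.14, from 4.66 and 3.66 to 75.98 and 80.4 CPM, and its near-identical copy Tuba3b went from 0 to 49 counts, at least 17.9-fold higher. Prdm1, a determinant of primordial germ cells, rose by 2.78 ± 0.22, from 1.96 and 1.87 to 14.6 and 12.1 CPM. In the genes given by CPM both clone 2 libraries lay above both WT libraries. Piwil2, a PIWI protein, fell by 1.32 ± 0.20, from 12.03 and 10.2 to 4.68 and 4.35 CPM, and D1Pas1, a testis DEAD-box helicase, by 0.67 ± 0.10. Ddx4, a germ cell helicase, was at -0.25 ± 0.25 and was not called. Against clone 1, 0 of the 30 were called higher and 12 lower, where 6.62% and 7.71% of all genes were. In clone 1 against the same WT libraries 18 were called higher and 1 lower, where 12.4% and 9.53% of all genes were. Sohlh2, at 32.3 and 33.8 CPM in clone 1, had a log2 difference of -1.58 in clone 2 from clone 1 (adjusted p = 4.65e-06). The Taf7l call was lost without WT-2 (adjusted p = 0.0653).

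Among DNA methylation and TET enzymes 2 of 14 (14.3%) were called lower and 0 higher, where 7.81% and 10.1% of all genes were. Dnmt3l, the cofactor of the de novo methyltransferases, fell by 1.26 ± 0.08, from 149 and 150 to 64.04 and 62.4 CPM (adjusted p = 2.29e-08), with 132 and 129 CPM in clone 1. Uhrf2, a relative of the maintenance factor Uhrf1, fell by 0.80 ± 0.11, from 75.4 and 68.9 to 39.4 and 44.6 CPM. Dnmt3a and Dnmt3b were at 0.04 ± 0.11 and -0.01 ± 0.09 and were not called. Of 29 silencing factors at H3K9 and Polycomb, 1 was called higher and 3 lower, with a median of -0.09 (0 to 2 and 1 to 5 over the alternatives). Shares of these silencing factors were 3.45% higher and 10.3% lower, where 10.1% and 7.81% of all genes were. The Polycomb subunit Suz12 fell by 0.47 ± 0.08, from 390 and 343 to 273 and 263 CPM. In the 3 genes given by CPM all clone 2 libraries lay below all WT libraries.

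Imprinted genes were called higher in 8 of 33 tested and lower in 4, with a median of 0.11, and in 3 to 8 higher and 2 to 6 lower over the alternatives. Of the imprinted genes 24.2% were thus higher and 12.1% lower, where 10.1% and 7.81% of all genes were. Mest, a paternally expressed gene, rose by 1.41 ± 0.14, from 12.4 and 13.2 to 33.6 and 35.6 CPM. Peg10, a paternally expressed gene derived from a retrotransposon, rose by 0.80 ± 0.10, from 42.9 and 44.8 to 80.7 and 74.5 CPM. Grb10, an adaptor that restrains insulin signalling, fell by 1.21 ± 0.11, from 69.1 and 67.7 to 31.3 and 28.5 CPM. Phlda2, a maternally expressed gene that restrains placental growth, fell by 1.202 ± 0.26, from 4.21 and 4.96 to 2.17 and 1.87 CPM, and stood at 14.03 and 15.5 in clone 1.

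Cell cycle inhibitors and p53 targets were called higher in 5 of 24 and lower in 5, and in 1 to 5 and 1 to 7 over the alternatives. Cdkn2a, which encodes p16 and p19Arf, rose by 3.32 ± 0.20, from 3.31 and 2.44 to 28.97 and 28.99 CPM (adjusted p = 5.71e-09). Pmaip1, the p53 target Noxa, fell by 1.51 ± 0.19, from 17.5 and 16.6 to 4.84 and 7.23 CPM. The groups did not overlap in either gene. The 5 genes called higher were Cdkn1a, Cdkn1b, Cdkn2a, Cdkn2b and Cdkn2c, which encode inhibitors of cyclin-dependent kinases. Of the other inhibitors on the list, Cdkn1c had 8 counts in WT and 3 in clone 2, and Cdkn2d was at 0.03 ± 0.17, and neither was called. Of 26 replication genes, 3 were called higher and 3 lower (0 to 4 and 1 to 5 over the alternatives), and Rrm2, of ribonucleotide reductase, fell by 0.49 ± 0.07, from 412 and 406 to 298 and 292 CPM. Of 21 mitosis genes 1 was called higher and 4 lower, with a median of -0.07. The shares higher and lower were 11.5% and 11.5% for replication and 4.76% and 19% for mitosis. Among all genes they were 10.1% and 7.81%. Leaving out a WT or clone 2 library left 0 mitosis genes called higher and 0 or 1 lower. Cdkn1a (adjusted p = 0.335), Cdkn1b (0.162), Cdkn2b (0.0991) and Cdkn2c (0.0836) were not called without WT-1. Cdkn1a (0.0995), Cdkn1b (0.168), Cdkn2b (0.196) and Cdkn2c (0.183) were not called without WT-2. Cdkn1a (0.181), Cdkn1b (0.311), Cdkn2b (0.211) and Cdkn2c (0.0716) were not called without KO2-1. Cdkn1a (0.259), Cdkn1b (0.0879) and Cdkn2c (0.194) were not called without KO2-2. Cdkn1a (0.0731), Cdkn1b (0.0679), Cdkn2b (0.065) and Cdkn2c (0.101) were not called by DESeq2. Cdkn1a, Cdkn1b, Cdkn2b and Cdkn2c were not called at a minimum fold of 1.2 (adjusted p of 0.0759 to 0.647).

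Cholesterol synthesis genes were called lower in 5 of 21 and higher in 0, with a median of -0.13, and lower in 0 to 8 over the alternatives. These are shares of 23.8% lower and 0% higher, where 7.81% and 10.1% of all genes were. Nsdhl, an enzyme of the later steps, fell by 0.51 ± 0.11, from 37.5 and 36.1 to 25.7 and 26.7 CPM. Glycolysis and hypoxia genes were called higher in 4 of 27 and lower in 3, where 10.1% and 7.81% of all genes were, with a median of -0.09. The counts were 1 to 6 and 0 to 6 over the alternatives, and 1 higher with 0 or 1 lower when a WT or clone 2 library was left out. Egln3, an oxygen-sensing hydroxylase, rose by 0.67 ± 0.14, from 18.6 and 16.8 to 25.6 and 31.2 CPM, and Hk2, a hexokinase, by 0.36 ± 0.08, from 496 and 535 to 675 and 663 CPM. Pdk1, which restrains entry of pyruvate into the mitochondrial cycle, fell by 0.31 ± 0.09, from 114 and 107 to 92.9 and 86.98 CPM. Nsdhl (adjusted p = 0.0617), Hk2 (0.101) and Pdk1 (0.201) were not called without WT-1. Egln3 (0.0541) and Pdk1 (0.083) were not called without WT-2. Nsdhl (0.0695), Hk2 (0.071) and Pdk1 (0.0918) were not called without KO2-1. Egln3 (0.0642) and Pdk1 (0.226) were not called without KO2-2. Nsdhl, Hk2 and Pdk1 were not called at a minimum fold of 1.2 (adjusted p of 0.0656 to 0.463).

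Extracellular matrix genes were called higher in 9 of 23 and lower in 2, with a median of 0.18, and higher in 4 to 10 over the alternatives. Shares higher and lower were 39.1% and 8.7% in this list and 34.8% and 8.7% in the adhesion list below. Among all genes they were 10.1% and 7.81%. Lama5, a laminin alpha chain, rose by 0.47 ± 0.08, from 379 and 398 to 543 and 546 CPM, and Spp1, osteopontin, by 0.48 ± 0.08, from 386 and 379 to 559 and 521 CPM. Serpinh1, the collagen chaperone, fell by 0.74 ± 0.10, from 103 and 102 to 60.2 and 64.4 CPM. Adhesion genes were called higher in 8 of 23 and lower in 2, with a median of 0.23, and higher in 4 to 10 over the alternatives. Cdh1, the epithelial cadherin, rose by 0.46 ± 0.07, from 356 and 363 to 503 and 497 CPM, and Dsp, a desmosome protein, by 1.36 ± 0.12, from 18.9 and 22.3 to 53.9 and 53.3 CPM. Itga7, a laminin-binding integrin chain, rose by 1.29 ± 0.24, and Snai1, a repressor of Cdh1 on the chromosome 2 run, fell by 1.29 ± 0.21. In all genes given by CPM the groups were apart. Col1a2, a fibrillar collagen chain, went from 1 count in WT to 29 in clone 2, a ratio of 31.8 (5.27 to 1298). The Col1a2 call was lost without WT-1 (adjusted p = 0.0536).

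**Figure D5:**
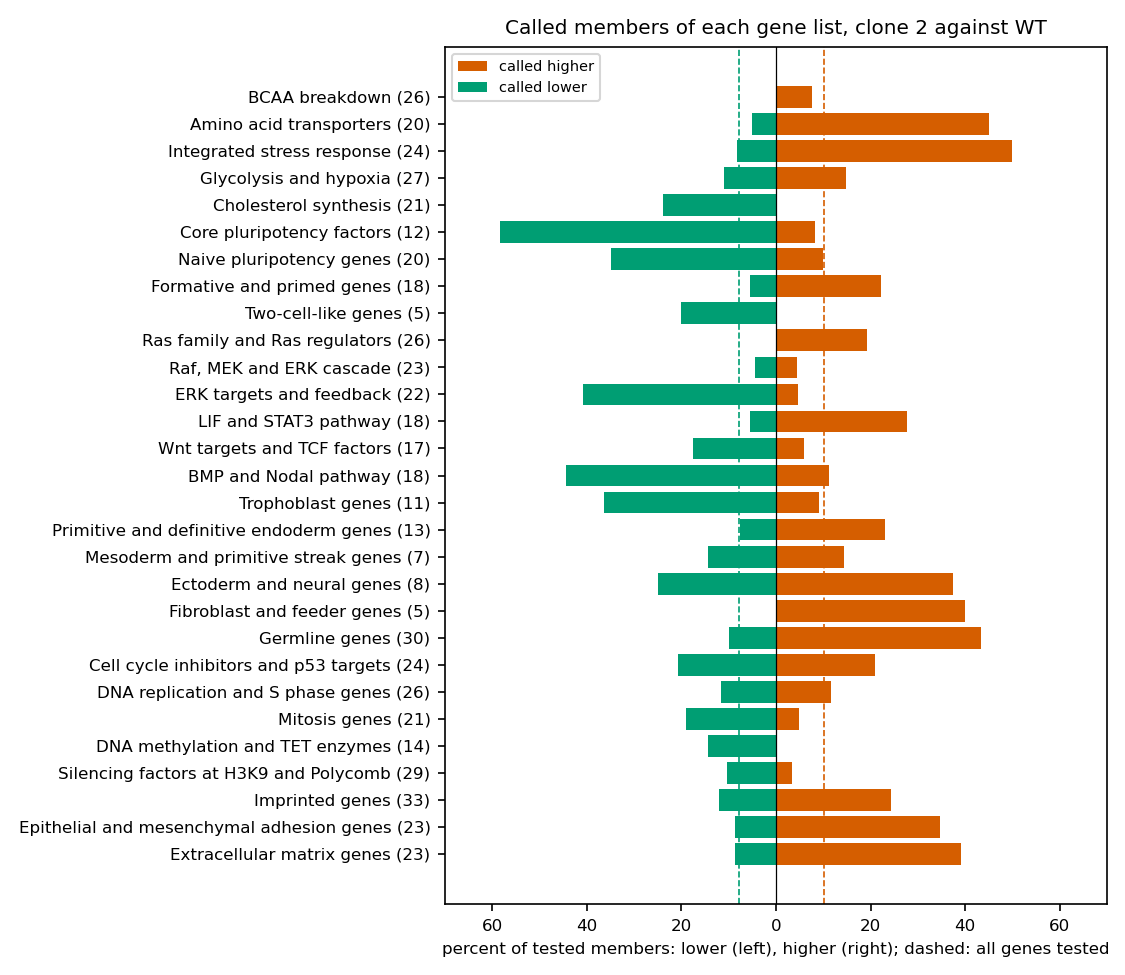
Percent of the tested members of each gene list (number tested in brackets, chromosome Y left out) called higher (orange, right) and lower (green, left) in clone 2 against WT, with dashed lines at 10.1% and 7.81%, the shares among all genes tested. The integrated stress response (50% higher) and the core pluripotency factors (58.3% lower) are among those farthest from the dashed lines.

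Some of the lower genes were neighbours. Runs were taken from a running median over 15 genes of 5 CPM or more, with a minimum of 0.3 and 4 genes, settings chosen after a look at the data, so the runs are a description. On chromosome 2, positions 166805588 to 172382448 (mm10) held 29 such genes, of which 25 were called lower and 0 higher, with a median of -0.80. Sall4, Snai1 and Cebpb lie there, and the same genes had a median of -0.91 in clone 1 against the same WT libraries. Positions 180568924 to 181212001 of chromosome 1 held 13 genes with 7 called lower, Parp1 and Lefty2 among them, with a median of -0.43, and -0.34 in clone 1. Positions 98703103 to 99980448 of chromosome 7 held 11 genes with a median of -0.46, and -0.02 in clone 1. The 4 called lower there were Mogat2 and Dgat2, both enzymes of triglyceride synthesis, Map6, a microtubule protein, and Serpinh1. On chromosome X, Xlr4a, Xlr3a and Xlr3b, of the same family as Xlr5c, were called higher at 0.86 ± 0.18, 0.58 ± 0.12 and 0.58 ± 0.11. Dgat2 (adjusted p = 0.0611) was not called without WT-1. Xlr4a (0.0519), Xlr3a (0.0873) and Dgat2 (0.0883) were not called without WT-2. Xlr4a (0.0758) and Dgat2 (0.0562) were not called without KO2-1. Dgat2 (0.0961) was not called without KO2-2. Parp1 (0.0522) was not called at a minimum fold of 1.2.

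Against clone 1, 989 genes (6.62%) were called higher in clone 2 and 1152 (7.71%) lower, together 2141 (14.3%). The higher share of these calls, 46.2%, was 30.1% when library sizes alone scaled the counts, 36.5% with upper quartile scaling and 55.2% without replicate 2 of clone 1, so that split rests on the setting. Without KO2-1 the count was 974 and without KO2-2 it was 1006. Beyond Wnt10b and chromosome Y, Platr15, a noncoding RNA named for its link to pluripotent cells, was at 1.504 and 1.72 CPM in WT, 0.908 and 0.713 CPM in clone 1 and 36.9 and 35.4 CPM in clone 2. It rose by 4.46 ± 0.20 against WT (adjusted p = 1.46e-10). Atp2b2, among the largest falls against WT, was at 6.44 and 7.21 CPM in clone 1, a log2 difference of -3.41 (adjusted p = 4.65e-06). Tfr2, a transferrin receptor, fell by 2.49 ± 0.63 against WT, from 1.504 and 1.72 to 0.501 and 0.0777 CPM. The Tfr2 call was lost without WT-1 (adjusted p = 0.0542), without WT-2 (0.0787) or without KO2-2 (0.132).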

How the data were processed

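RNA of E14 mouse embryonic stem cells was sequenced after removal of ribosomal RNA with Ribo-Zero Gold, per the labels' protocols. Raw read counts per gene were deposited by the authors. Tools listed without roles, per the submitters' processing notes, are DESeq2 1.18.1, HTSeq 0.9.1 and HISAT2 2.1.0, with the build mm10. The strand setting is not given in the sources used here, so overlapping and antisense genes cannot be told apart. The 5 HTSeq summary entries were removed; reads without a feature made up 4.14 to 5.35% and ambiguous reads 6.96 to 9.1% of a library. No sample column was left unmapped.

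All 6 libraries were fitted in 3 groups with edgeR 4.0.16 (quasi-likelihood F test, two-sided, TMM scaling, filterByExpr, Benjamini-Hochberg at 0.05), which tested 14946 of the 26926 genes with any count. The script recovered known changes in counts simulated from the spread that the same model had fitted. That checks the code and not the calls made here. Adjusted p-values are from this fit or its alternatives, among them DESeq2 1.42.0, and the SE is the absolute log2 fold change over the root of F. Where a group of replicates is left with 1 library, it is assumed to vary like the others. No replicate pair looked like 1 library deposited again: the chi-square statistic, divided by the genes compared, was 3.57 for WT, 3.27 for clone 2 and 8.79 for clone 1, whose replicates differed most. Folds against 0 counts use 3 counts over the group, and ratios at 1 to 3 counts carry an exact (Clopper-Pearson) 95% interval. Gene positions are from GENCODE M21 on GRCm38, and promoters from RefSeq for GRCm38.p6.

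Named genes are the 12 largest rises and falls by log2 fold change (mean CPM of 1 or more, groups apart), the 6 largest each way in CPM, the 6 largest each way that also differed from clone 1, and up to 4 genes with the smallest p in each of 30 lists, passing over predicted genes, pseudogenes and ribosomal or small RNAs. Not all of these are printed, a few genes are not reported here, and other list members were named for their known role after their values were seen. The members and lists were chosen with earlier results of these data known. The alternatives were other scalings, filters, a minimum fold, DESeq2, a fit of the 4 libraries alone, the replicate number as a term, and each library left out.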

Additional observations from a re-analysis of the deposited data

Results flagged for a closer look

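Of 69 named genes called between the clones, 8 had been called in opposite directions against WT in clone 2 and clone 1, and these are given here by the log2 difference of clone 2 from clone 1 in edgeR's quasi-likelihood fit, which tests that difference itself. Both clones were set against the same WT libraries. Uba1y, the Y-linked ubiquitin-activating enzyme, differed by 9.675 (adjusted p = 4.98e-07), a fitted value against 0 counts in clone 1 and so no bound. Platr15, the noncoding RNA, differed by 5.537 (7.23e-11), with log2 fold changes against WT of 4.46 in clone 2 and -1.08 in clone 1. Atf5, of the integrated stress response, differed by 1.832 (1.25e-07), at 1.05 and -0.78, and Aars, the alanyl-tRNA synthetase, by 0.6258 (2.32e-05), at 0.29 and -0.34. The imprinted Peg10 differed by 1.471 (1.2e-07), at 0.80 and -0.67, and Phlda2 by -2.793 (6.45e-07), at -1.20 and 1.59. The laminin chain Lama1 differed by 0.7196 (1.49e-05), at 0.48 and -0.24. Pdk1, a kinase of pyruvate dehydrogenase, differed by -0.5781 (0.000373), at -0.31 and 0.26. Some of the opposite calls were marginal. In the same fit the clone 1 calls against WT had adjusted p of 0.0473 for Uba1y, 0.0452 for Lama1 and 0.0438 for Pdk1. The clone 2 calls against WT were lost under 4 of the 15 alternatives for Aars and 5 for Pdk1. With 2 libraries a group, no single library could be tested for standing apart.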

How the results depend on the processing

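No named gene called against WT turned its direction under any of the 15 alternatives, and 83 of 133 kept their call under all. Against WT, 2674 genes were called, 1296 at a minimum fold of 1.2, 4065 when the 4 libraries compared were fitted alone, and between 1165 and 4191 when 1 library was left out. Against clone 1, 2141 were called, 999 at a minimum fold of 1.2 and between 974 and 3155 when 1 library was left out. Other scalings, filters and DESeq2 stayed within 1.5 times of either count, between 1968 and 2962 against WT and between 1495 and 2454 against clone 1, as did the fit of the 4 libraries against clone 1 (1706). Of 450 counts of list members, 134 moved by over 1.5 times. The causes were not tested. With the replicate number as a block, 3685 genes were called against WT and 3007 against clone 1, among them all 2674 and all 2141. The numbers were not taken to pair the samples, since deviations of libraries of the same number correlated at 0.0132 between WT and clone 2, 0.0929 between WT and clone 1 and 0.182 between the clones. Where 1 of the replicates is left out, its group holds 1 library. At this depth genes with few counts, such as Kdm5d, could not be tested.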
